A study of Mus musculus with 24 samples.

Results

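Gene expression was compared in the medial prefrontal cortex (mPFC) of male mice whose dams had received morphine (MO) or saline (SAL), for the genes measured well enough to be described one by one. A gene was a member when its normalized count averaged at least 100 over the 12 male libraries, which held for 10578 of the 24972 genes in the male table. These members carried 98.9% to 99.1% of the normalized counts of a library. The median member averaged 614 normalized counts, 3665 members averaged 1000 or more, and 207 averaged 10000 or more. At the limit itself, Ptges (100.1) and Pars2 (100.1) were just inside, and Tfeb (99.9) and Zfp398 (99.8) just outside.

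The offspring were wild-type B6D2F1/J hybrids, bred from C57BL/6J dams and DBA/2J sires. Only the dams were injected, subcutaneously once a day from before breeding until weaning, with morphine sulfate at 10 mg/kg, reached in steps, or with an equal volume of saline. The exposure thus covered gestation and nursing. Small litters were merged soon after birth, and all litters moved to a reversed light cycle before weaning. The offspring were killed on postnatal day 21, and their brains were not perfused. The mPFC was dissected from brains stored in RNAlater, and its poly(A) RNA was sequenced. The 6 male MO libraries are PFC10, PFC11, PFC13, PFC15, PFC17 and PFC19, the 6 male SAL libraries PFC9, PFC12, PFC14, PFC16, PFC18 and PFC20, each from 1 offspring of a litter. Each level below is the normalized count that the authors deposited, and each log2 fold change is the MO mean minus the SAL mean of log2(normalized count + 1), tested by limma over the 16662 genes with a summed value of at least 10.

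The mPFC is a cortical region used in attention, planning and impulse control, and morphine acts in the brain on opioid receptors, which couple to inhibitory Gi/o proteins and quieten the cells that carry them. Neurons that fire strongly transcribe a set of immediate early genes within minutes, without new protein synthesis, so the RNA of these genes reports recent activity more than the type of cell. Many encode transcription factors such as Fos and Egr1, others encode synaptic proteins such as Arc, and others switch the signal off again, such as the phosphatase gene Dusp1.

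The normalized counts of a library were scaled to nearly equal sums. Read numbers cannot be had from such sums, so the depth of each library is unknown. The paper gives an approximate read number for the sequencing, but none library by library. Ranks of the members agreed closely between any pair of libraries (Spearman correlation 0.983 to 0.997, across genes). Markers of cortical tissue were high, and the glutamate transporter gene Slc17a7 and the calcium kinase gene Camk2a of excitatory cortical neurons averaged 33880 and 42490 normalized counts in MO and 34420 and 42450 in SAL, and 0 of 10 choroid plexus markers were members. A few libraries stood apart. SAL PFC16 had the highest level of the 14 members of the striatal projection neuron list (mean log2 level 9.68, against 8.74 to 9.20 in the other 11 libraries), and MO PFC15 the highest level of myelin genes. The ribosomal RNA fragment Mir6236 reached 32960 to 39850 normalized counts in SAL PFC18, SAL PFC20 and MO PFC19, against 10590 to 21180 elsewhere.

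Differences between MO and SAL were small for nearly all members. At an unadjusted p under 0.05, 91 members (0.86%) were higher and 139 (1.31%) lower in MO, beside 1.33% higher and 1.52% lower of all genes tested. After Benjamini-Hochberg adjustment, 0 members passed 0.05 in limma (0% of all genes tested), the smallest adjusted p being 0.9997. The groups of 1 member did not overlap, beside 0.06% of all genes tested. The median log2 fold change was -0.002 over members and -0.0002 over all genes tested, and 87.3% of members lay within 0.1 of 0. The 95% interval of 10428 members (98.6%) lay entirely within 0.5 of 0 on the log2 scale, with a median width of 0.14 to either side (0.09 and 0.26 at the 5th and 95th percentiles). Only 20 members had a log2 fold change beyond 0.5, 15 of them below 0, and 15 of the 25 lowest log2 fold changes belonged to immediate early genes.

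**Figure D1:**
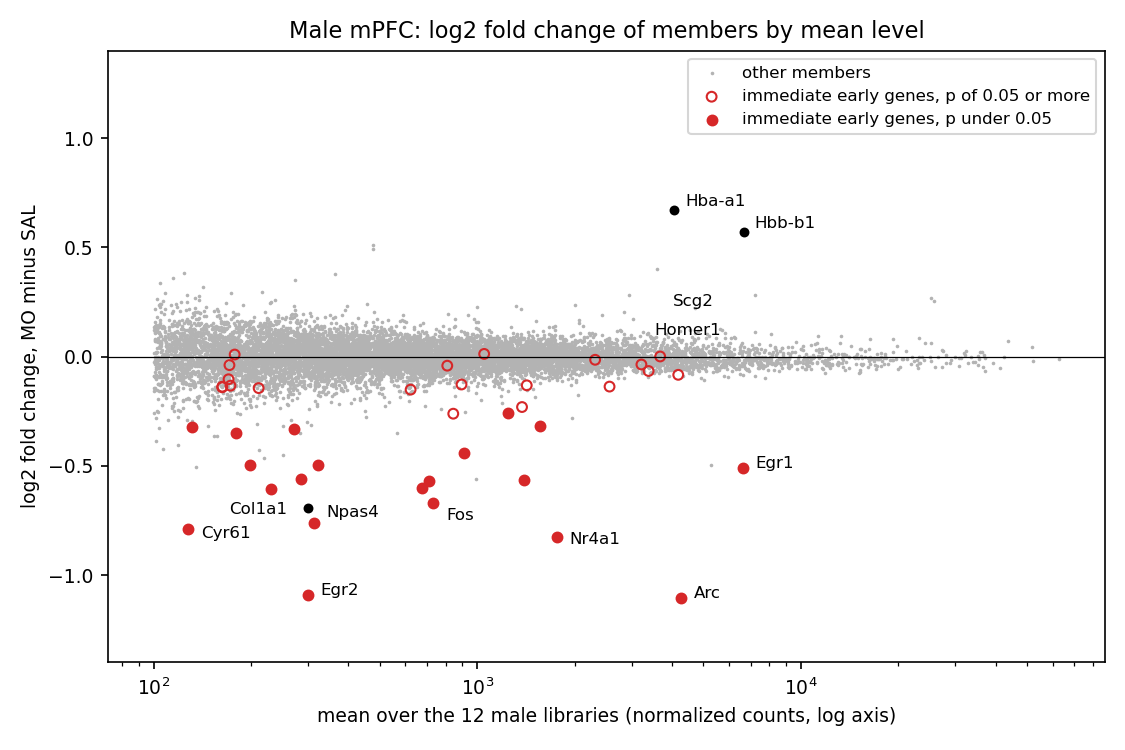
Log2 fold change (MO minus SAL) of the members against their mean over the 12 male libraries in normalized counts, on a log axis. Immediate early genes are red, filled where the unadjusted p was under 0.05 (20 of 40), other members grey, with 3 further genes in black. The members 2210418O10Rik (2.62) and Fam205a3 (2.46), each listed at 0 in 4 libraries, lie above the axis. The red points lie near or below 0, down to -1.10 for Arc.

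Immediate early genes were the members with the largest decreases. Of the 40 members of this list, 20 were lower and 0 higher at an unadjusted p under 0.05, with a median log2 fold change of -0.26, beside 1.52% lower and a median of -0.0002 over all genes tested. None of these 20 passed an adjusted p of 0.05 in limma. The moderated limma fit draws the variance of a gene toward that of genes at similar levels, and the count of 20 rests on it. By the exact permutation test, only Arc, Egr1, Egr2, Fos, Ier2, Npas4, Nr4a1 and Trib1 of the 20 had an unadjusted p under 0.05. In all, 37 of the 40 had a log2 fold change below 0. The 3 above 0 were Nptx2 (0.01), Inhba (0.01) and Scg2 (0.00). The list was put together with earlier results of these data known, so its count is a description.

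Among the Egr zinc finger transcription factors, 3 of 4 were lower. Egr1 measured 6563, 7831 and 8727 normalized counts as the lowest, median and highest SAL library, and 3330, 5516 and 7165 in MO. PFC13, PFC17, PFC10 and PFC11 lay below every SAL library, and PFC15 and PFC19 lay within the SAL range. The log2 fold change was -0.51 (SE 0.14, 95% interval -0.81 to -0.21, limma unadjusted p = 0.00228, exact permutation p = 0.0108), the smallest p of all members. Egr2, on chr10:67535475-67542188 (GRCm38), ranged from 257 to 474 in SAL (median 375) and from 49.6 to 355 in MO (median 226). PFC13, PFC10 and PFC17 were below every SAL library, and the log2 fold change was -1.09 (95% interval -1.85 to -0.33, exact permutation p = 0.0325). Egr4 followed at -0.44 (exact permutation p = 0.0606). Egr3, the remaining family member, differed by -0.14 (95% interval -0.35 to 0.07).

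The AP-1 factors, dimers of Fos and Jun proteins, divided in a similar way, with 3 of 6 lower. Fos (chr12:85473890-85477273) measured 729, 869 and 979 normalized counts as the lowest, median and highest SAL library and 277, 576 and 935 in MO. PFC13, PFC17, PFC10 and PFC11 were below every SAL library. Its log2 fold change was -0.67 (95% interval -1.11 to -0.24, limma unadjusted p = 0.00442, exact permutation p = 0.0238). Junb was at -0.57 and Fosb at -0.50, with exact permutation p of 0.0628 and 0.0909. The other AP-1 genes did not pass the test: Fosl2 had a log2 fold change of -0.15, Jun -0.13 and Jund -0.01, the last with a 95% interval of -0.15 to 0.12.

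Nr4a1, an orphan nuclear receptor gene on chr15:101254269-101274795, had 1742, 2222 and 2380 normalized counts in the lowest, median and highest SAL library and 619, 1397 and 2419 in MO. PFC13, PFC17 and PFC10 were low, and PFC19 was above every SAL library. The log2 fold change was -0.83 (95% interval -1.39 to -0.27, exact permutation p = 0.0455). Its relative Nr4a3 was at -0.26 (exact permutation p = 0.130) and Nr4a2 at -0.13 (95% interval -0.50 to 0.24).

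Npas4 encodes a factor induced by calcium influx in neurons and lies on chr19:4984355-4990316. It measured 300.2, 368 and 526 normalized counts in the lowest, median and highest SAL library and 136, 227 and 439 in MO. Here 5 of 6 MO libraries were below every SAL library and only PFC19 was within their range. The log2 fold change was -0.76 (95% interval -1.27 to -0.26, exact permutation p = 0.0411). Of the 3 Klf factors in the list, Klf4 was lower (-0.32, exact permutation p = 0.0909), while Klf10 (-0.26) and Klf2 (-0.14) did not pass the test.

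Arc, whose protein at the synapse governs removal of AMPA receptors, had the lowest log2 fold change of the members. The gene lies on chr15:74669083-74672570. The lowest, median and highest SAL libraries measured 4313, 5738 and 5810 normalized counts, the MO libraries 940, 2919 and 5881. PFC17 (940) and PFC13 (1059) were the lowest, PFC10 (2634) and PFC11 (3205) came between. PFC15 (5062) was among the SAL values and PFC19 (5881) just above them. The means were 5427 ± 592 in SAL and 3130 ± 2032 in MO (SD, n = 6 each), a ratio of 0.577. The log2 fold change was -1.10 (SE 0.35, 95% interval -1.84 to -0.37, limma unadjusted p = 0.00575, exact permutation p = 0.0303). Pooled over the groups, the SD of the log2 values of Arc was 0.80 (1.115 in MO, 0.17 in SAL). For Arc, Egr2 and Nr4a1 the moderated SE was smaller than the gene's own SD gives. Their limma intervals are therefore narrower than unmoderated ones would be.

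Most other synaptic and secreted effectors of the list did not pass the test. Of the 9, only Arc and Cyr61 (-0.79, exact permutation p = 0.0628), which encodes a matrix protein, were lower. Homer1, a scaffold gene of the postsynaptic density, had a log2 fold change of -0.04 (95% interval -0.25 to 0.18). The neurotrophin gene Bdnf was at -0.04 (95% interval -0.23 to 0.15), Nptx2, which encodes a protein that gathers AMPA receptors, at 0.01 (95% interval -0.10 to 0.12), and Scg2, a granin of secretory vesicles, at 0.00 (95% interval -0.08 to 0.08). The intervals of these 4 genes lay above the log2 fold changes of Arc, Fos and Egr1. Those of Homer1 and Bdnf still overlapped the interval of Egr1 (-0.81 to -0.21). The values are gene counts, so transcript forms of a gene were not told apart.

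Feedback genes, which end or shape the response, held 8 lower members of 14. Trib1, a pseudokinase gene, was at -0.60 (exact permutation p = 0.0498) and Ier2 at -0.60 (exact permutation p = 0.0433). Dusp1, the MAP kinase phosphatase gene, was at -0.57, the antiproliferative gene Btg2 at -0.56, the salt-inducible kinase gene Sik1 at -0.50, Csrnp1 at -0.35, Tiparp at -0.33 and the ERK phosphatase gene Dusp6 at -0.32, with exact permutation p between 0.0584 and 0.102 for these 6. The clock gene Per1 (-0.23), Ppp1r15a (-0.14), Gadd45g (-0.14), Ier5 (-0.13), Gadd45b (-0.10) and Plk2 (-0.07) did not pass the test.

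**Figure D2:**
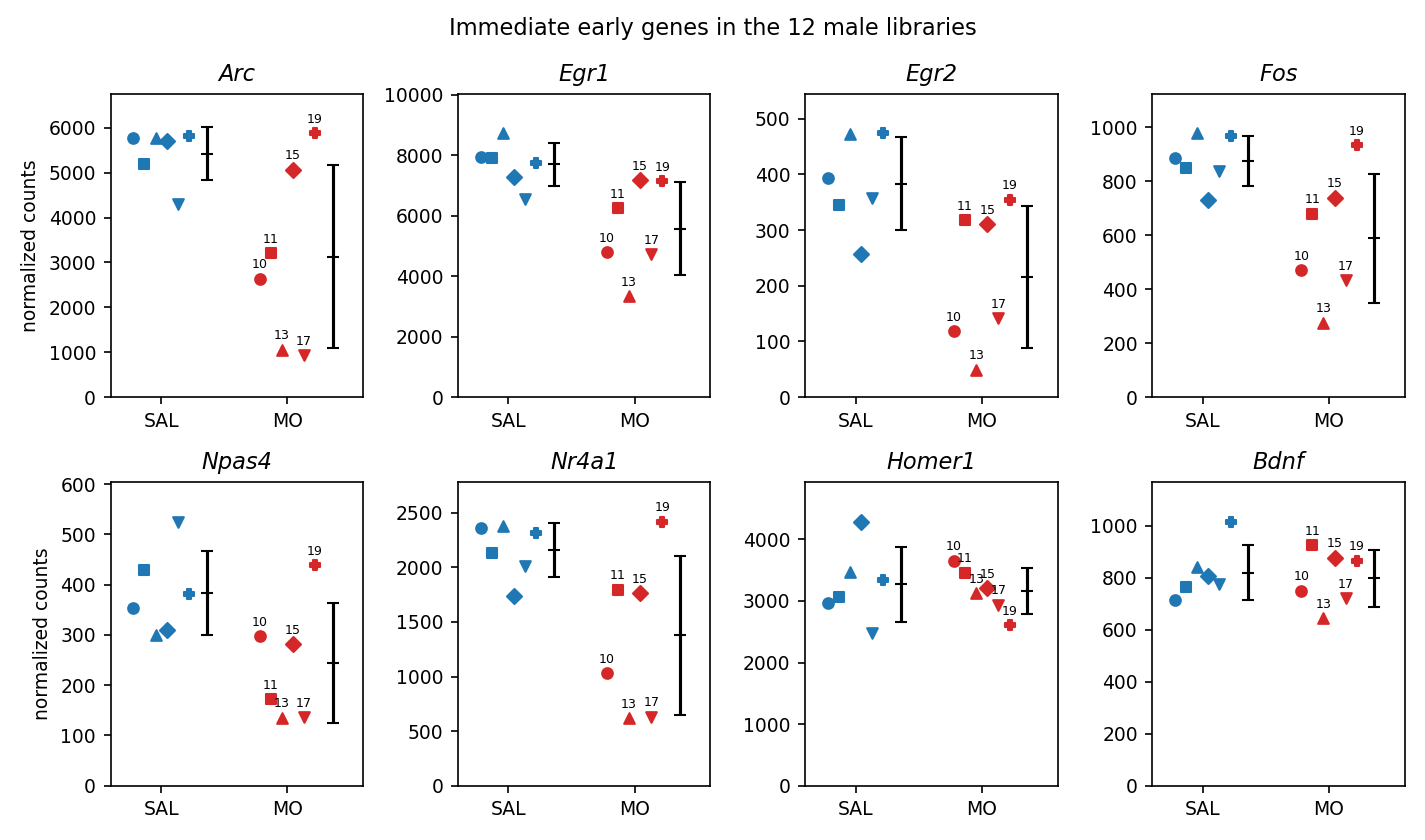
Normalized counts of 8 immediate early genes in the 6 SAL (blue) and 6 MO (red) male libraries, with the mean and SD of each group in black and the number of each MO library above its point. For Arc, MO libraries 13 and 17 lie at 1059 and 940, library 15 at 5062 is among the SAL libraries and library 19 at 5881 just above them, while Homer1 and Bdnf overlap between the groups.

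The lower genes were low in the same libraries. Over the 20 genes, PFC13 and PFC17 were each below every SAL library for 20, PFC10 for 19, PFC11 for 12, PFC15 for 5 and PFC19 for 0. PFC13 was among the 2 lowest of the 12 libraries for 18 genes and PFC17 for 17. The mean log2 level of the 20 genes was 8.08 in PFC13, 8.26 in PFC17, 8.71 in PFC10, 8.94 in PFC11, 9.21 in PFC15 and 9.51 in PFC19, while the SAL libraries ran from 9.18 to 9.52. MO was therefore more variable than SAL for these genes. The SD of log2 values was larger in MO for 20 of 20, with a median of 0.60 in MO and 0.20 in SAL. Since the genes share the libraries, their counts are not independent of each other.

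Leaving out MO PFC13 or MO PFC17 left 14 immediate early genes lower in each case, and the count was 14 to 23 over the 12 fits that left out 1 library. The median over the list was -0.16 without PFC13. With no filter on low values 11 genes were lower, and 13 with limma's robust option. The column names of SAL PFC9, MO PFC10 and MO PFC11 carry the word combined, whose meaning is not given in the sources used here. With a term for it 18 genes were lower. In each of the 12 fits 14 of the 20 kept an unadjusted p under 0.05, Arc, Egr1, Egr2, Fos, Npas4 and Nr4a1 among them. The red blood cell list moved with the same comparison: its mean log2 level was 9.54 to 10.93 in MO and 9.19 to 10.78 in SAL. In MO, PFC11 had the highest level of this list (10.93) with a mean of the 20 early genes of 8.94, and PFC19 the lowest (9.54) with 9.51. In SAL, PFC12 had the highest (10.78) with 9.33. With a term for the red blood cell level, an alternative added after the data were seen, 8 immediate early genes were lower, 7 of them among the 20. These 7 were Fos, Egr1, Egr2, Egr4, Nr4a1, Arc and Npas4, and Arc had a log2 fold change of -0.84. The median over the list was -0.21 in that fit.

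To show the regulatory sequence of these genes, which moved together across libraries, the 250 bases before the transcription start were read from RefSeq on build GRCm38.p6. A start was listed for 14 of the 20 lower genes, but not for Arc, Cyr61, Egr1, Ier2, Sik1 or Trib1. The cyclic AMP response element (CRE), bound by CREB after calcium or cAMP signals, was searched as TGACGTCA and as its core TGACG on both strands. The full element contains the core on each strand. The core was present before 11 of the 14 genes (not before Egr2, Dusp6 or Tiparp), beside 28.6% of the 8315 members with a listed start and 17.9% of all 27018 genes with one, taking the start listed at the top for each gene. The full element was present for 2 of 14, beside 3.02% of members and 1.62% of all genes. The CArG box, the site of serum response factor, was not found in the window of any of the 14 (beside 1.03% of members and 1.4% of all genes). Bases farther upstream and the genes without a listed start were not searched, so CArG boxes there would have been missed. The matches describe letters and are not evidence of binding. All 14 come from a list of genes chosen as immediate early genes. Early genes that were not lower were not counted beside them, so the shares cannot be tied to the decrease. The sequences shown are Fos at chr12:85473640-85473889 (plus strand), Npas4 at chr19:4989972-4990221 (minus strand), Nr4a1 at chr15:101266596-101266845 (plus strand) and Egr4 at chr6:85513590-85513839 (minus strand), chosen for large decreases or several cores, and Dusp1 at chr17:26508473-26508722 (minus strand) and Btg2 at chr1:134079156-134079405 (minus strand), which carry the full element. They read 5′ to 3′ on the strand of the gene, up to the base before its start, with CRE cores and full elements on either strand in capitals.
Fos: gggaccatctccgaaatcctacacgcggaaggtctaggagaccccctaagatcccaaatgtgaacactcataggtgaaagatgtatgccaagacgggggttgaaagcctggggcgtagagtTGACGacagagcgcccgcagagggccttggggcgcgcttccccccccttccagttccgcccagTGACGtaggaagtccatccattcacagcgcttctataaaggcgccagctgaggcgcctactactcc
Npas4: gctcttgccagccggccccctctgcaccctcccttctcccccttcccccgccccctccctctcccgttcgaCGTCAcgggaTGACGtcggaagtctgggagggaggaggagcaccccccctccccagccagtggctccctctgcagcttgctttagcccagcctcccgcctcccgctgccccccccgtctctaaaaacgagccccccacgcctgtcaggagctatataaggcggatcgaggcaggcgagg
Nr4a1: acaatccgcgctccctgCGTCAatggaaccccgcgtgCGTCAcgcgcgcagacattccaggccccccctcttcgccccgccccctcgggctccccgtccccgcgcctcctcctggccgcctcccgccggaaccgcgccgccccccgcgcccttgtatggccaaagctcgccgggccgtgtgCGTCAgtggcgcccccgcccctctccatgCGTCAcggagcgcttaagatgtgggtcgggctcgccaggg
Egr4: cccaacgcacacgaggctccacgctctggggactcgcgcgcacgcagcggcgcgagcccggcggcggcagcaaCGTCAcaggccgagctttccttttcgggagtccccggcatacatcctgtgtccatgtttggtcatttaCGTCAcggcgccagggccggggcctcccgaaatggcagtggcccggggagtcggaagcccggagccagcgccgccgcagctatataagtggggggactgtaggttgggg
Dusp1: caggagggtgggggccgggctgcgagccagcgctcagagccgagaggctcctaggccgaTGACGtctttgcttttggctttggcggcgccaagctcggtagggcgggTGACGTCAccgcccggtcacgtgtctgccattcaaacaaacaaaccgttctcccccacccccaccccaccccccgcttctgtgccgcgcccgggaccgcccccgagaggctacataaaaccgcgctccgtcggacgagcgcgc
Btg2: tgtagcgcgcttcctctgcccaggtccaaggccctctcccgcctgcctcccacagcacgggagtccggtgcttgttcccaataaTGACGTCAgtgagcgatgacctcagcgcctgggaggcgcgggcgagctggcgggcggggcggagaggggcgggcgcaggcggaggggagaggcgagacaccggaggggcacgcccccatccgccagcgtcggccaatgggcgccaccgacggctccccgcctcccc
Fos, Npas4 and Egr4 carried 2 cores each and Nr4a1 carried 4, and their log2 fold changes were -0.67, -0.76, -0.44 and -0.83. Nr4a3, with 4 cores, was at -0.26, and Egr2, with none, at -1.09.

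In females, 19 of the same 20 genes also had a log2 fold change below 0 and 0 of 20 had an unadjusted p under 0.05. Arc was at -0.76 in females (95% interval -1.78 to 0.26), Egr1 at -0.57 (-1.17 to 0.03) and Fos at -0.56 (-1.30 to 0.19). The female MO libraries PFC1 and PFC5 were low for these genes, and so was the female SAL library PFC6. Their mean log2 levels of the 20 genes were 7.93, 7.89 and 8.33, against 8.87 to 9.51 in the other 9. PFC1 and PFC5 also had the highest Hbb-b1 of the female libraries (19120 and 15940 normalized counts). It was 2292 to 9088 elsewhere, with 8284 in PFC6. PFC1 had the highest Mbp as well (130100, against 12120 to 67900 in the rest). The part of blood or myelin in the female values was not tested. PFC1, PFC5 and PFC6 carry the word combined in their column names, as do PFC2, PFC3, PFC4, PFC7 and PFC8. The difference between the sexes was tested as an interaction over 24 libraries. It had an unadjusted p of 0.187 or more for each of the 20 genes, and every 95% interval held 0, for Arc -1.70 to 1.00 around -0.34. Male and female libraries shared litters. Which ones did is not given in the sources used here, and the fit takes all 24 as independent.

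**Figure D3:**
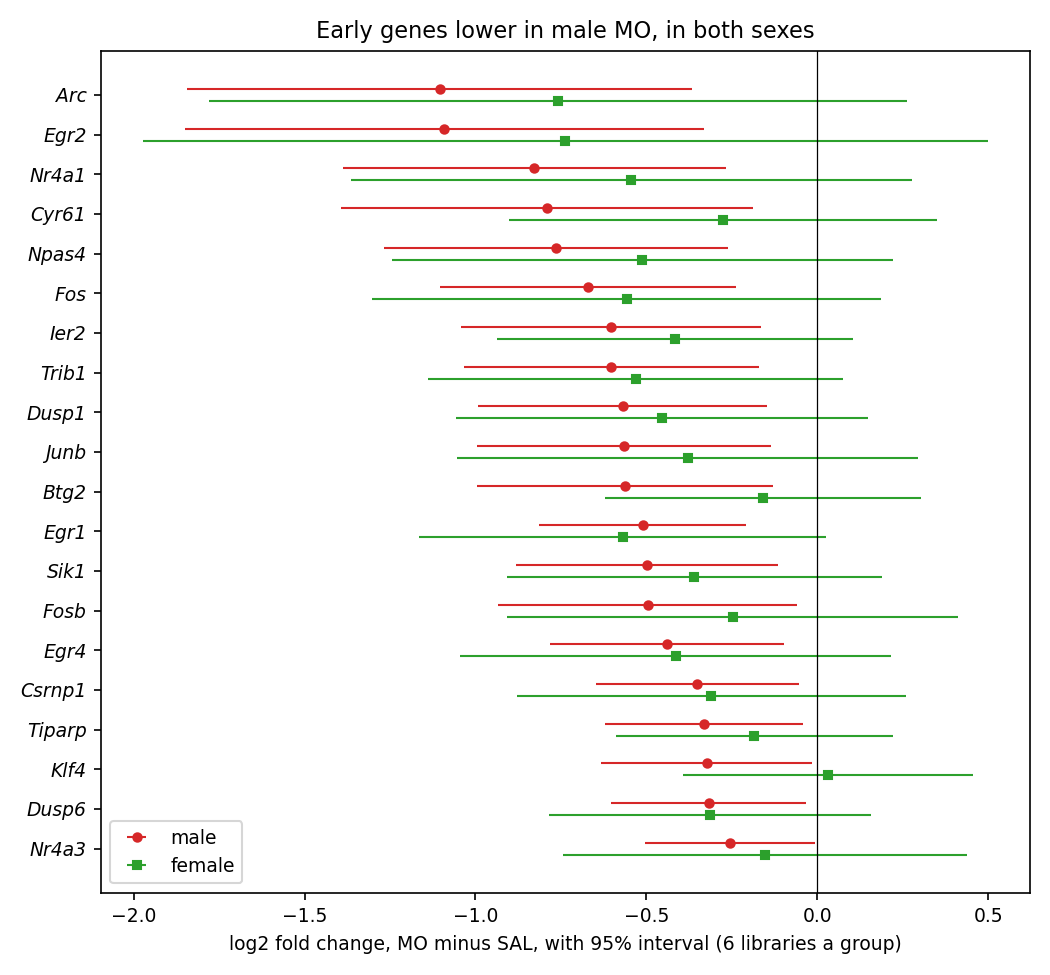
Log2 fold change (MO minus SAL) with its 95% interval for the 20 immediate early genes lower in male MO, in males (red circles) and females (green squares), from 6 libraries a group. The genes were chosen on the male values, so the male points are a description. In females 19 of 20 points lie below 0 and all intervals include 0.

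Outside this list, members of the meninges and fibroblast list were lower and those of the red blood cell list higher. Of 13 meninges and fibroblast members, 4 (30.8%) were lower and 0 higher at an unadjusted p under 0.05. Of all genes tested, 1.52% were lower and 1.33% higher. The list had a median log2 fold change of -0.23, and 12 members lay below 0. These genes share the libraries, so their counts are not independent of each other. Col1a1, the gene of the main chain of type I collagen, measured 179, 347 and 690 normalized counts as the lowest, median and highest SAL library and 152, 208 and 341 in MO. PFC19, PFC15 and PFC13 were below every SAL library, and SAL PFC12 (690) was far above the rest. The log2 fold change was -0.69 (95% interval -1.23 to -0.15, exact permutation p = 0.0584). The small leucine-rich proteoglycan genes Dcn (-0.43) and Fmod (-0.47) and the second collagen chain gene Col1a2 (-0.35) were the other 3. Fn1, the fibronectin gene, was at -0.04, and Igf2, a growth factor gene of the meninges, at -0.25 (95% interval -0.60 to 0.09). The summed level of the list was 3794 to 6223 in MO and 5309 to 7979 in SAL, lowest in PFC19. Without PFC19 the median over the list was -0.11. Fewer cells of a type and less RNA per cell cannot be told apart in this tissue.

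Of the 6 red blood cell members, 2 (33.3%) were higher at an unadjusted p under 0.05, beside 1.33% of all genes tested. All 6 had log2 fold changes above 0, with a median of 0.50, and they too share the libraries. Hbb-b1, a beta-globin gene, measured 3503, 4696 and 9167 normalized counts as the lowest, median and highest SAL library and 4452, 8386 and 10930 in MO. The groups overlapped, with PFC19 the lowest in MO and SAL PFC12, PFC14 and PFC18 among the MO values. The log2 fold change was 0.57 (95% interval 0.10 to 1.04, exact permutation p = 0.0844), and that of the alpha-globin gene Hba-a1 was 0.67 (exact permutation p = 0.102). Globin copies are alike, so reads may have been divided between them. Hba-a1 and Hba-a2 summed to a log2 fold change of 0.52 (exact permutation p = 0.113). The summed level of the list was 10250 to 24840 in MO and 7953 to 21990 in SAL. The brains were not perfused, and the blood left in each sample is not given in the sources used here. Leaving out SAL PFC9, SAL PFC16, SAL PFC20 or MO PFC11 ended the call of both genes, with log2 fold changes down to 0.44 for Hba-a1 and 0.46 for Hbb-b1, both without SAL PFC16. The part of blood or meninges in the immediate early gene result was not tested beyond the terms given.

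Myelin genes were higher in MO on average without passing the test. All 21 mature oligodendrocyte members had log2 fold changes above 0 (median 0.21) and 0 of 21 had an unadjusted p under 0.05. Mbp, the myelin basic protein gene, measured 17090, 21020 and 30240 normalized counts as the lowest, median and highest SAL library and 14300, 25500 and 52660 in MO. PFC15 (52660) and PFC13 (32190) were above all SAL libraries and PFC11 (14300) below them. Without PFC15 the median over the list was 0.03. Of 17 oligodendrocyte precursor members, Neu4, a sialidase gene, was higher (0.19, exact permutation p = 0.0390). It made up 5.88% of the list, beside 1.33% higher of all genes tested, and kept the call in 6 of the 12 fits without 1 library.

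**Figure D4:**
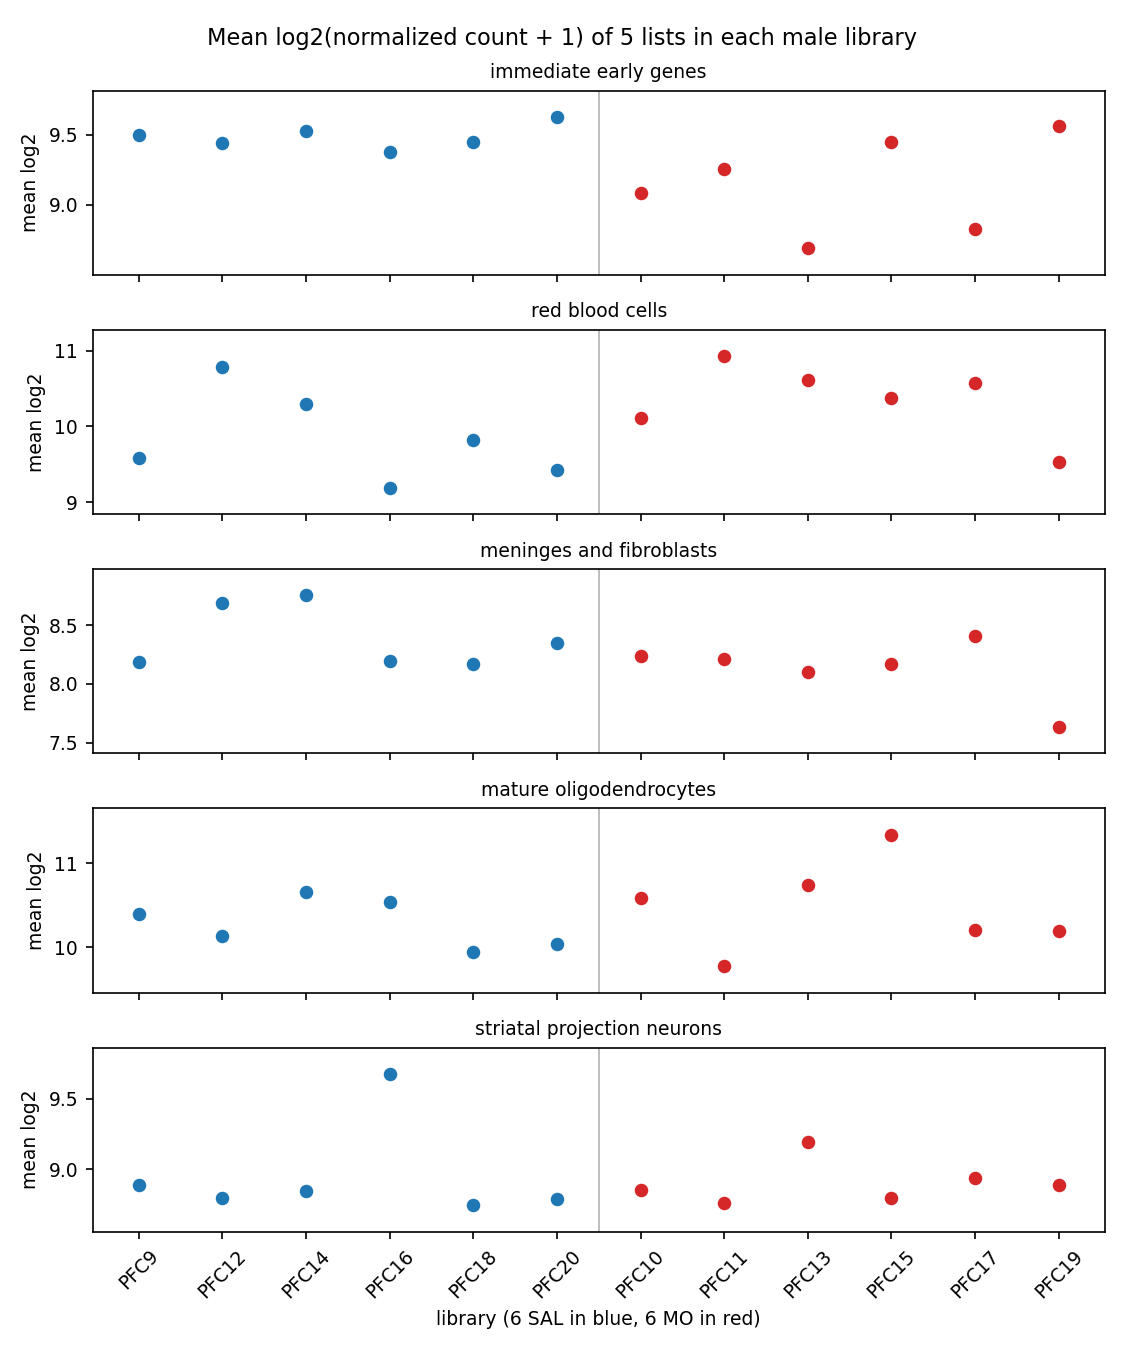
Mean log2(normalized count + 1) of the members of 5 gene lists in each male library, SAL in blue and MO in red. MO libraries PFC13 and PFC17 are lowest for immediate early genes and SAL PFC16 is highest for the striatal list (9.68). The ranges of all 5 lists overlap between the groups.

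Most genes of protein synthesis and respiration had small log2 fold changes above 0 that did not pass the test. Of 79 cytosolic ribosomal protein genes, 77 had log2 fold changes above 0 with a median of 0.07, and 2 were higher at an unadjusted p under 0.05, Rpl39 (0.14) and Rps14 (0.12). Of 77 mitochondrial ribosomal protein genes, 65 were above 0 (median 0.05) and 2 passed, Mrpl34 (0.18) and Mrpl41 (0.14). Of 76 genes of oxidative phosphorylation 71 were above 0 (median 0.07) and 1 passed, Uqcr10 (0.14). The shares that passed were 2.53%, 2.6% and 1.32%, beside 1.33% higher of all genes tested. Over the 12 fits without 1 library Rpl39, Mrpl41 and Uqcr10 kept the call in 6 each and Rps14 in 4. The ranges of these lists overlapped between the groups, for the cytosolic ribosomal genes 11.36 to 11.68 in MO and 11.28 to 11.57 in SAL on the mean log2 scale. PFC19 was the highest of all 12 and SAL PFC16 the lowest for each of these 3 lists. Without PFC19 the medians were 0.03, 0.02 and 0.03.

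Opioid genes among the members did not pass the test. Of 6 members of the opioid peptide and receptor list 0 passed the test, with a median of -0.005. Oprm1, the gene of the mu receptor that morphine chiefly binds, averaged 10.1 normalized counts (5.81 to 19.5) and was not a member. Oprk1, the kappa receptor gene, had a log2 fold change of -0.16 (95% interval -0.45 to 0.13), Oprd1, the delta receptor gene, -0.01 (-0.25 to 0.23), and Oprl1, the nociceptin receptor gene, 0.02 (-0.07 to 0.11). The peptide genes were at 0.00 for Pdyn (-0.19 to 0.19), -0.04 for Penk (-0.45 to 0.37) and 0.06 for Pnoc (-0.16 to 0.28). Penk reached 1512 normalized counts in SAL PFC16, the library high in striatal genes, and 591 to 1087 in MO. Of 53 genes of Gi/o signaling 0 passed, with a median of -0.02.

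Transmitter and synapse genes also gave counts of 0. None of 17 ionotropic and 7 metabotropic glutamate receptor members, 12 GABA-A receptor subunits, 13 genes of GABA synthesis and transport, 46 of presynaptic release, 40 of the postsynaptic density, 61 potassium channel genes or 24 voltage-gated calcium and sodium channel genes had an unadjusted p under 0.05. Their medians ran from -0.03 to -0.02. Slc17a7 was at -0.02 (95% interval -0.14 to 0.09) and Gad1, which makes GABA, at 0.00 (-0.12 to 0.12). The intervals of both genes leave out a difference of 0.5. Of 7 cholinergic receptor members Chrm4, the M4 muscarinic receptor gene, was lower (-0.22, exact permutation p = 0.0649). Of 54 protocadherins Pcdhgc4 (-0.16) and Pcdhgb1 (-0.18) were lower, from a gene cluster whose transcripts share exons. These calls made up 14.3% and 3.7% of their lists, beside 1.52% lower of all genes tested. Over the 12 fits without 1 library Chrm4 kept the call in 10, Pcdhgc4 in 9 and Pcdhgb1 in 6.

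**Figure D5:**
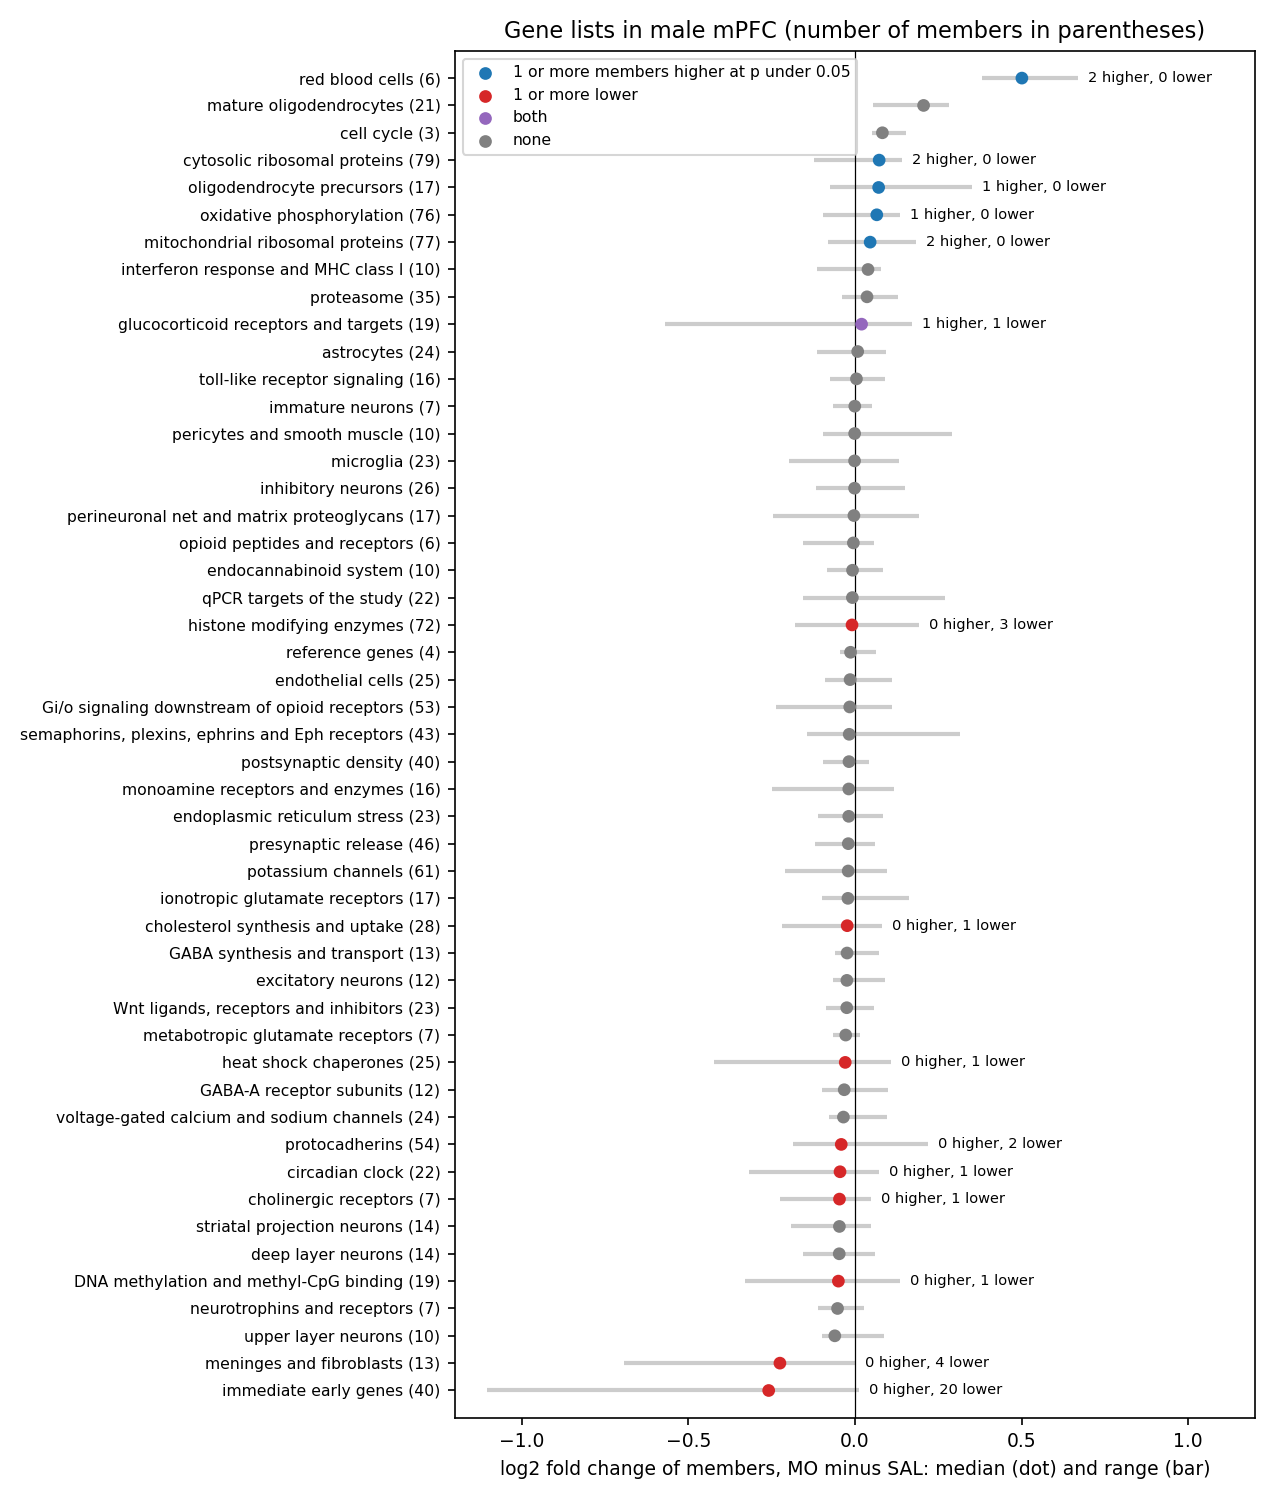
Median (dot) and range (bar) of the log2 fold change, MO minus SAL, over the members of 49 gene lists, with the number of members in parentheses and the number at an unadjusted p under 0.05 beside the bar. Immediate early genes have the lowest median (-0.26), with 20 lower, and red blood cells the highest (0.50), and 45 lists have medians within 0.1 of 0.

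Further lists held few genes past the test, beside 1.52% lower and 1.33% higher of all genes tested. Of 25 heat shock chaperone genes Hspa1a was lower (-0.40), of 22 clock genes Nfil3 (-0.32), and of 19 genes of DNA methylation Tdg, a DNA glycosylase gene (-0.33). Of 72 histone modifying enzyme genes 3 (4.17%) were lower. They were the demethylase genes Kdm7a (-0.18) and Kdm2a (-0.12) and the deacetylase gene Sirt7 (-0.18). Mt1, the metallothionein 1 gene, was higher (0.17, exact permutation p = 0.0411) in the glucocorticoid list, where Dusp1 was the 1 lower member. Over the 12 fits without 1 library Mt1 kept the call in all 12, Nfil3 in 8 and Kdm7a in 7. Hspa1a and Tdg kept it in 6 each, Kdm2a and Sirt7 in 4 each. Of the 49 lists with a member, 34 had none past the test. Among these were astrocytes (0 of 24), microglia (0 of 23) and endothelial cells (0 of 25), and none of 22 genes also assayed by qPCR or of 4 reference genes passed.

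Among members outside the immediate early genes, the 12 higher ones of smallest p had log2 fold changes of 0.14 to 0.34, with varied spread. The pooled SD of log2 values was 0.06 for Snrpg and 0.07 for Rnd2, but 0.16 for Hddc2 and 0.23 for Lcmt2. Rnd2, a small GTPase gene of neurons, measured 1364, 1428 and 1504 normalized counts as the lowest, median and highest SAL library and 1495, 1574 and 1767 in MO. In 5 of 6 MO libraries it was above every SAL library, and the log2 fold change was 0.16 (95% interval 0.07 to 0.26, limma unadjusted p = 0.00248, exact permutation p = 0.00649). Idh2, the mitochondrial isocitrate dehydrogenase gene, was at 0.17, Snrpg, of the spliceosome, at 0.17, Scrg1 at 0.17, the sorting nexin gene Snx12 at 0.16, Lage3 at 0.25, Hddc2 at 0.28, the sphingomyelinase gene Smpd2 at 0.23, Fastk at 0.14, Lcmt2 at 0.34 and E130311K13Rik at 0.27. With Mrpl34 these are the 12 higher members of smallest p. Scaled to Gapdh and Ppia, 15 members were higher and 88 lower in place of 91 and 139, and Rnd2, Idh2, Snrpg, Scrg1, Snx12, Smpd2 and Fastk were among those lost. Scaling did not change the count of lower immediate early genes, which stayed at 20.

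Among lower members, Specc1l, a cytoskeletal linker gene, measured 620, 644 and 689 normalized counts as the lowest, median and highest SAL library and 532, 569 and 625.1 in MO. In 5 of 6 MO libraries it was below every SAL library, with a log2 fold change of -0.17 (exact permutation p = 0.00433). Fbln1, a fibulin gene of the extracellular matrix, was at -0.36 (exact permutation p = 0.00433), Irs1, the insulin receptor substrate gene, at -0.20, Mxd1, a partner of Max, at -0.23, Ccdc117 at -0.30 and Pisd-ps1 at -0.25. N4bp1 was the member whose groups did not overlap, at 616 to 685 in MO and 686 to 796 in SAL. Its log2 fold change was -0.14 (exact permutation p = 0.00216, the smallest that 924 relabellings allow), but the groups touched, with 685.3 as the highest MO and 685.5 as the lowest SAL library, and they overlapped after median ratio scaling.

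Of the most abundant members, the astrocyte glutamate transporter gene Slc1a2 was at -0.02 (95% interval -0.20 to 0.17) and Cpe, which encodes a peptide-processing enzyme, at 0.04 (-0.03 to 0.12), and neither passed the test in limma. By the exact permutation test of its log2 values alone Cpe had an unadjusted p of 0.0411. The pooled SD of log2 values between libraries of a group was 0.11 for the median member, and 0.05 and 0.24 at the 5th and 95th percentiles. The most variable members were uncertain. Amd1 (SD 4.66) was listed at 0 in 6 libraries, but its sum with Amd2 had an SD of 0.08, and Cers1 (SD 4.14) was at 0 in 2 libraries, but its sum with Gdf1, which overlaps it on chr8:70315775-70331592, had an SD of 0.22. The other members of greatest spread included Egr2 and Arc.

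Few members passed the test of a difference between the sexes in the response to exposure, which does not show that the sexes respond alike. The interaction had an unadjusted p under 0.05 for 110 members (1.04%), beside 2.1% of all 17303 genes tested, and 0 passed an adjusted p of 0.05. Tkfc (0.37), Ubox5 (0.37), Cstf1 (0.28), Racgap1 (0.28) and Cfap74 (0.36) were the 5 of smallest p with a higher value in males, and Rev1 (-0.32), Eya1 (-0.38), Fzd6 (-0.45), Rwdd4a (-0.28) and Lrrc58 (-0.30) the 5 with a lower value. Col1a1 was also among the 110, with an interaction of -1.28 (95% interval -2.30 to -0.26, limma unadjusted p = 0.0161). It was at -0.69 in males and 0.59 in females.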

How the data were processed

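Poly(A) RNA of mPFC was sequenced with directional libraries and single reads of 85 bases. The deposited values are the normalized signal, gene counts scaled by the authors with DESeq after STAR and Salmon on mm10 (versions not given in the sources used here). They were not whole numbers, so no count model was used, and each sex's table had been normalized separately. From these, limma 3.58.1 in R 4.3.3 (moderated, with trend) was fitted to log2(normalized count + 1) over 16662 genes summing to at least 10 in the 12 male libraries, with Benjamini-Hochberg adjustment over all of them. Single genes were also tested on log2 values by a 2-sided exact permutation test over 924 relabellings. The interaction of sex and exposure was fitted over 24 libraries and 17303 genes. The scripts were tested on simulated data.

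Samples were grouped by GEO's labels for exposure and sex, with separate offspring as replicates. The members, the gene lists and the rule for named genes were chosen with earlier results of these data known. The rule named the 12 members of smallest p in each direction, the 5 of largest change in each direction, members whose groups did not overlap, the most abundant and most variable members, the leading members of each list and the 5 of smallest interaction p in each direction. Other immediate early genes, Oprm1 and genes sharing reads with a named gene were named after their values were seen. Alternatives were pseudocounts, filters, scalings, limma options, a term for libraries whose column name carries the word combined, a term for the striatal list and leaving out each library. Terms for red blood cell, meninges and oligodendrocyte levels were chosen after seeing the data. Gene positions are from GENCODE on GRCm38. Some genes are not reported here.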

Additional observations from a re-analysis of the deposited data

Results flagged for a closer look

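Single libraries stood far from the other 5 of their group in 24 of 342 groups examined, by Dixon's test at the 95% level, which by chance marks about 1 group in 20. The groups share libraries and are not independent. SAL PFC16 was low for Jund (1971 normalized counts) and high for N4bp1 (795.5), Penk (1512) and Oprd1 (262.4). Its mean log2 level was also high for the striatal list (9.68), opioid genes (8.57), Gi/o signaling (10.78) and voltage-gated calcium and sodium channels (10.85). SAL PFC18 was high for Cyr61 (277.8) and low in mean log2 level for microglia (8.10) and the interferon and MHC list (7.77). MO PFC19 was low for Igf2 (493.9 normalized counts) and Cers1 (listed at 0) and high for Oprl1 (986.9), Gdf1 (1232) and Mir6236 (39850). Amd1 was high in MO PFC13 (1320) and SAL PFC14 (668.1), Scrg1 in MO PFC13 (442.4) and Snrpg in SAL PFC20 (305.7). In MO PFC17, Lrrc58 was low (1568) and 2210418O10Rik was listed at 0. The deep layer list was low in MO PFC11 (9.36) and Gi/o signaling in MO PFC15 (10.66), as mean log2 levels.

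The change with exposure differed between males and females at an unadjusted p under 0.05 in limma for 13 named genes, none of which passed an adjusted p of 0.05. The male minus female difference in log2 fold change was above 0 for Tkfc (0.37), Ubox5 (0.37), Cstf1 (0.28), Racgap1 (0.28) and Cfap74 (0.36). It was below 0 for Pisd-ps1 (-0.31), Col1a1 (-1.28), Sirt7 (-0.28), Rev1 (-0.32), Eya1 (-0.38), Fzd6 (-0.45), Rwdd4a (-0.28) and Lrrc58 (-0.30).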

How the results depend on the processing

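The count of members past an adjusted p of 0.05 was 0 under every alternative run, as was that of the interaction. The 91 members higher in MO became 139 with no filter on low values, 15 when scaled to Gapdh and Ppia, 163 with the red blood cell term, 157 with the meninges term and 29 with a mean of at least 500. The 139 lower members became 88, 210 and 50 when scaled to Gapdh and Ppia, with the meninges term and with a mean of at least 500. Leaving out 1 library gave 65 to 179 higher and 100 to 246 lower members, both highest without MO PFC11 (151 higher without MO PFC10). The 20 lower immediate early genes became 11 with no filter, 13 with the robust option and 8 with the red blood cell term, and 14 to 23 when 1 library was left out. The count of members whose groups did not overlap was 0 after median ratio scaling and 4 to 25 without 1 library, where fewer samples make separation easier. For the others the cause was not tested. Over the 122 genes named or examined, 1422 of 1690 refits of called genes kept an unadjusted p under 0.05, 268 lost it and 0 changed sign. No paired analysis was run, because MO and SAL offspring came from different dams and the litter of each library is not given in the sources used here. The read depth of each library is unknown, so the precision of low values cannot be given.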
